A study of Mus musculus with 12 samples.

Results

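The set described here is the drug and xenobiotic metabolism gene families of the mouse testis: the cytochrome P450 (Cyp), epoxide hydrolase (Ephx), flavin monooxygenase (Fmo), UDP-glucuronosyltransferase (Ugt), sulfotransferase (Sult), carboxylesterase (Ces) and aldehyde oxidase (Aox) genes. Members were chosen by symbol alone, with the P450 genes of testicular steroid synthesis, retinoic acid breakdown and sterol demethylation (Cyp11a1, Cyp17a1, Cyp19a1, Cyp26a1, Cyp26b1, Cyp26c1 and Cyp51) left out. This gave 174 of the 24516 genes measured, and a gene was the sum of its transcripts. Testes came from wild-type C57BL/6 mice at 4 ages, from 3 to 18 months, which are 3M, 6M, 12M and 18M below, with 3 mice per age (named 3M-1 to 18M-3), no treatment and no altered allele. After removal of ribosomal RNA the total RNA was sequenced, and the 12 libraries held between 50924104 and 71803379 reads in the deposited table. Levels are given as FPKM (fragments scaled by transcript length and sequencing depth), which can be compared between genes.

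These families act in sequence on foreign chemicals, steroids, bile acids and fatty acids. P450, flavin monooxygenase and aldehyde oxidase enzymes oxidise a compound, and epoxide hydrolases and carboxylesterases open epoxides and esters with water. Glucuronosyltransferases and sulfotransferases then attach a sugar acid or a sulfate, which makes the product soluble. The liver is the best known site, and in the testis some of the enzymes act on androgens and estrogens.

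The labelled tissue was checked by cell type markers, and the cells of a testis were seen in every library. Spermatid markers (7 genes, among them Prm1 and Tnp1) summed to 21900 to 32600 FPKM per library, spermatocyte markers (6) to 334 to 363, spermatogonial markers (6) to 45.8 to 56.8 and Sertoli markers (10) to 473 to 637. Markers of peritubular myoid cells (5) summed to 23.4 to 33.0, of endothelium (5) to 4.44 to 5.77, of macrophages (8) to 23.8 to 41.7 and of adipose tissue (4) to 5.91 to 8.53. Liver markers (4, among them Alb) summed to only 0.358 to 0.984 FPKM and epididymal markers (6, with Lcn5 and Adam28 at 0) to 0.142 to 0.567. Leydig cell markers, which mark the steroid-making cells, summed to 1020 to 1180 in the 3M mice, and 940 to 1720 in the 6M mice. They summed to 771 to 826 in the 12M mice and to 704 to 975 in the 18M mice. The library 6M-3 had the highest sums of Leydig (1720), Sertoli (637), macrophage (41.7), peritubular myoid (33.0), endothelial (5.77) and spermatogonial (56.8) markers. Its spermatid (21900) and adipose (5.91) sums were the lowest of the 12 libraries. Of its Leydig sum 1520 FPKM were Insl3. Its Cyp11a1 (27.1) was below that of the other 6M mice (30.4 and 32.8), and its Cyp17a1 (69.5) was above it (61.4 and 65.7). Star (11.3, against 9.2 and 7.06) and the Leydig sum without Insl3 (202, against 162 and 182) were also highest in 6M-3 among the 6M mice.

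Most of the families were quiet in the testis. Only 28 of the 174 members (16.1%) had a mean of 1 FPKM or more over the 12 libraries, against 54.6% of all genes. A further 51 members lay between 0.1 and 1 FPKM, 95 lay under 0.1, and 36 of these had no read in any library. The silent members included the liver genes Cyp3a11, Cyp2c37, Cyp2c50 and Cyp4a12a. The 174 members together took 0.0342% to 0.0449% of the reads assigned to genes in a library. The 15 highest members made up 73.9% of the summed level of the set.

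Ephx1, the microsomal epoxide hydrolase that turns reactive epoxides into diols, was the highest member, with a mean of 24.1 FPKM and 16.2% of the summed level. It was followed by the P450 genes Cyp2a12 (11.6 FPKM) and Cyp2d26 (10.9 FPKM) and by the glucuronosyltransferase Ugt1a6a (10.2 FPKM). Next came Sult1e1, the estrogen sulfotransferase (7.19 FPKM), the aldehyde oxidase Aox3 (6.98 FPKM) and the carboxylesterase Ces1d (6.43 FPKM). Below these were the pseudogene Cyp4f41-ps (5.71 FPKM), Ephx4 (5.68), Cyp1b1, which oxidises polycyclic aromatic compounds and estradiol (4.75), and Cyp46a1, the cholesterol 24-hydroxylase (4.42). The list of 15 closed with Ces3a (3.93), the sterol 27-hydroxylase Cyp27a1 (3.18), the phenol sulfotransferase Sult1a1 (2.57) and Ces1a (2.51). Fmo1, which oxidises nitrogen and sulfur compounds, was the highest flavin monooxygenase at 0.477 FPKM, and Cyp3a57 was the highest Cyp3 gene at 0.128 FPKM.

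**Figure D1:**
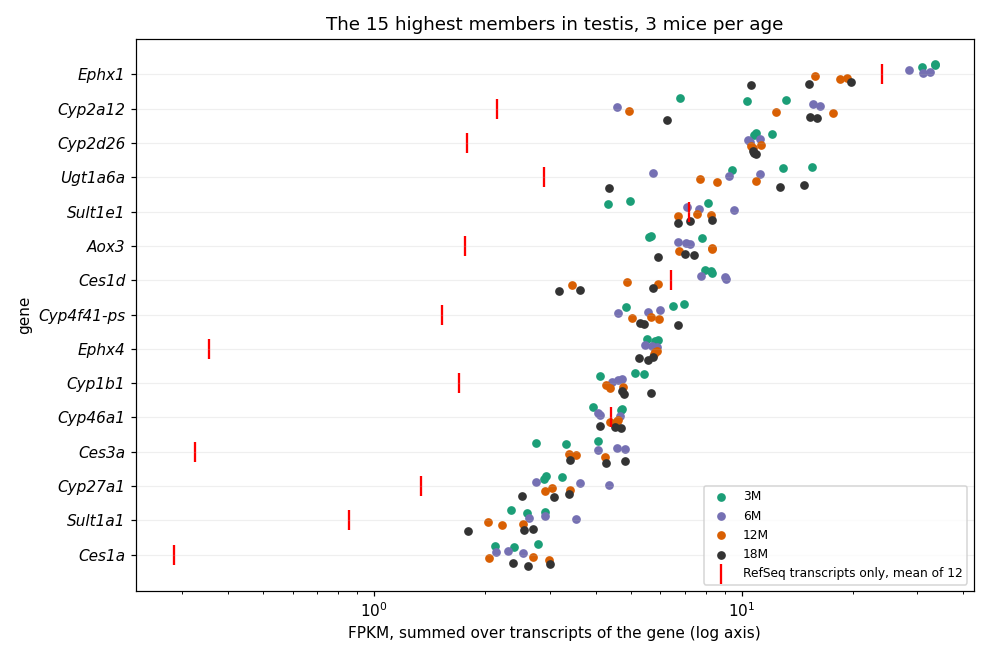
FPKM of the 15 highest members on a log axis, one row per gene and one point per mouse (3 per age, coloured by age), with a red tick at the 12-library mean over transcripts with a RefSeq identifier alone. Ephx1 stands highest with its 12M and 18M points left of its 3M and 6M points, and the red tick lies far left of the points for genes such as Cyp2a12 and Ephx4.

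Much of this order rested on assembled transcripts that differ from the known ones. Counting only transcripts with a RefSeq identifier, Ephx1 (24.1 FPKM), Ces1d (6.43), Sult1e1 (7.19) and Cyp46a1 (4.42) kept their levels, and Sult1e1, Ces1d and Cyp46a1 followed Ephx1 in that order. Cyp2a12 dropped from 11.6 to 2.16 FPKM, because a short assembled transcript of 241 bases carried most of its FPKM. Over the 12 libraries this transcript ranged from 0.634 to 17.2 FPKM, with low and high libraries at every age. Cyp2d26 dropped from 10.9 to 1.79 FPKM, Ugt1a6a from 10.2 to 2.89 and Aox3 from 6.98 to 1.77. Ephx4 dropped from 5.68 to 0.356, Ces3a from 3.93 to 0.325 and Ces1a from 2.51 to 0.286 FPKM. Exons of Cyp27a1 overlapped those of Ttll4 on the same strand over 81.8% of their bases, and those of Ephx4 overlapped Lpcat2b over 22.9%. Reads within the overlapped stretches could not be told apart. The libraries carried no strand information either.

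The sequence just before the start of a gene is shown for Ephx1, the highest member and the one with the smallest adjusted p in the slope test described next, beside Sult1e1, whose RefSeq level is the nearest below it. Both are the 250 bases before the RefSeq transcript start on GRCm38.p6, from the RefSeq promoter table, Ephx1 at chr1:181017570-181017819 and Sult1e1 at chr5:87591612-87591861, both on the minus strand and written 5′ to 3′. Both starts equalled the start of the transcript in the deposited assembly. Capitals mark a match, on either strand, to AGGTCA (a nuclear receptor half-site), GCGTG (core of the aryl hydrocarbon receptor element), TGACNNNGC (core of the antioxidant response element) or GGGCGG (the GC box).
Ephx1: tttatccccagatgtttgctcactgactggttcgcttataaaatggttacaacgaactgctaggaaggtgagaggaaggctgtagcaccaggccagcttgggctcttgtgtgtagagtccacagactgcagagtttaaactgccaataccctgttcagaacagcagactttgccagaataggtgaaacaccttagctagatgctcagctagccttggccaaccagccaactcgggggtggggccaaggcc
Sult1e1: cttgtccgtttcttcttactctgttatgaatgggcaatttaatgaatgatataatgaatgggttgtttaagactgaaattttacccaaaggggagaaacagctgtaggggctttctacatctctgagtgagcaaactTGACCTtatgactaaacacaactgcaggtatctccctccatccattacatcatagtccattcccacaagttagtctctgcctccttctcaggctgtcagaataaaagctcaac
The Ephx1 window held none of the 4 motifs, and the Sult1e1 window held AGGTCA on the other strand at bases 113 to 108 before the start. Promoters were matched by symbol for 134 of the 174 members. In the 32851 promoters of the table, AGGTCA was found in 14.0%, GCGTG in 28.2%, TGACNNNGC in 10.2% and GGGCGG in 32.7%. In the 147 promoters of members these shares were 22.4%, 16.3%, 2.04% and 17.0%, given as a description of letters only.

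Change across the whole age course was tested first, as the slope of the log2 level on age in months, fitted with edgeR's quasi-likelihood test on the counts of all 12 libraries. Of 18367 genes tested, 76 were called at an adjusted p of 0.05 or less (0.414%), 58 of them falling with age (0.316%). Among the 84 members with enough reads to be tested, 2 were called, Ephx1 and Ces1d, and both fell. At an unadjusted p of 0.05 or less, 16 of the 84 members passed, beside 17.5% of all genes tested. Of the 16, 14 members had a slope below 0, beside 9.60% of all genes, and 2 had a slope above 0, beside 7.87%. Of the 14, 6 were Ugt1a genes, which share reads and are not separate measurements. With the Ugt1a locus counted as 1, 9 of 77 (11.7%) had a slope below 0 at that unadjusted p, close to the share of all genes, and 44 of 77 slopes (57.1%) lay below 0. In all, 51 of the 84 members had a slope below 0 (60.7%), against 51.3% of all genes, and the median slope of members was -0.0045 log2 units per month, against -4e-04 over all genes.

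Ephx1 was lower at 12M and 18M than at 3M and 6M. Its FPKM was 33.6, 33.6 and 30.8 in the 3M mice, 28.5, 32.5 and 31.0 at 6M, 15.8, 19.3 and 18.5 at 12M, and 19.8, 15.2 and 10.6 at 18M. Every 12M and 18M mouse was below every 3M and 6M mouse, and the 12M and 18M mice overlapped. From the youngest to the oldest age the means were 32.6 ± 1.63, 30.7 ± 2.04, 17.9 ± 1.83 and 15.2 ± 4.64 FPKM (SD, n = 3). The slope was -0.08 log2 units per month (SE 0.011, edgeR adjusted p = 0.0063), or -1.19 log2 units over 15 months, and it was called in each of the 12 fits that left out 1 library. With age as a factor in place of a slope the call was lost (edgeR adjusted p = 0.053). Its reads were 29906 over all libraries, it shares no window of 101 bases with another annotated gene, and its exons overlap no other gene. The gene lies at chr1:180989556-181017569 on the minus strand (mm10). In bulk testis, fewer cells that express a gene and less RNA per cell cannot be told apart.

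Ces1d, a carboxylesterase that hydrolyses esters and triacylglycerols, was also lower at 12M and 18M. It was measured at 7.95, 8.25 and 8.27 FPKM at 3M, 7.76, 9.02 and 9.05 at 6M, 4.87, 5.93 and 3.46 at 12M, and 5.73, 3.63 and 3.19 at 18M. The 2 younger ages lay above the 2 older ages in every mouse, with no overlap. The slope was -0.075 log2 units per month (SE 0.014, edgeR adjusted p = 0.042). With 1 library left out, its adjusted p lay between 0.0054 and 0.16 and the call was lost in 10 of 12 fits. With age as a factor the adjusted p was 0.16, and with the replicate block 0.059. Leaving out the library 6M-3 gave an edgeR adjusted p of 0.064 for Ces1d and 0.016 for Ephx1. The gene lies at chr8:93166072-93197804 on the minus strand (mm10) and shares no window of 101 bases with another annotated gene.

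**Figure D2:**
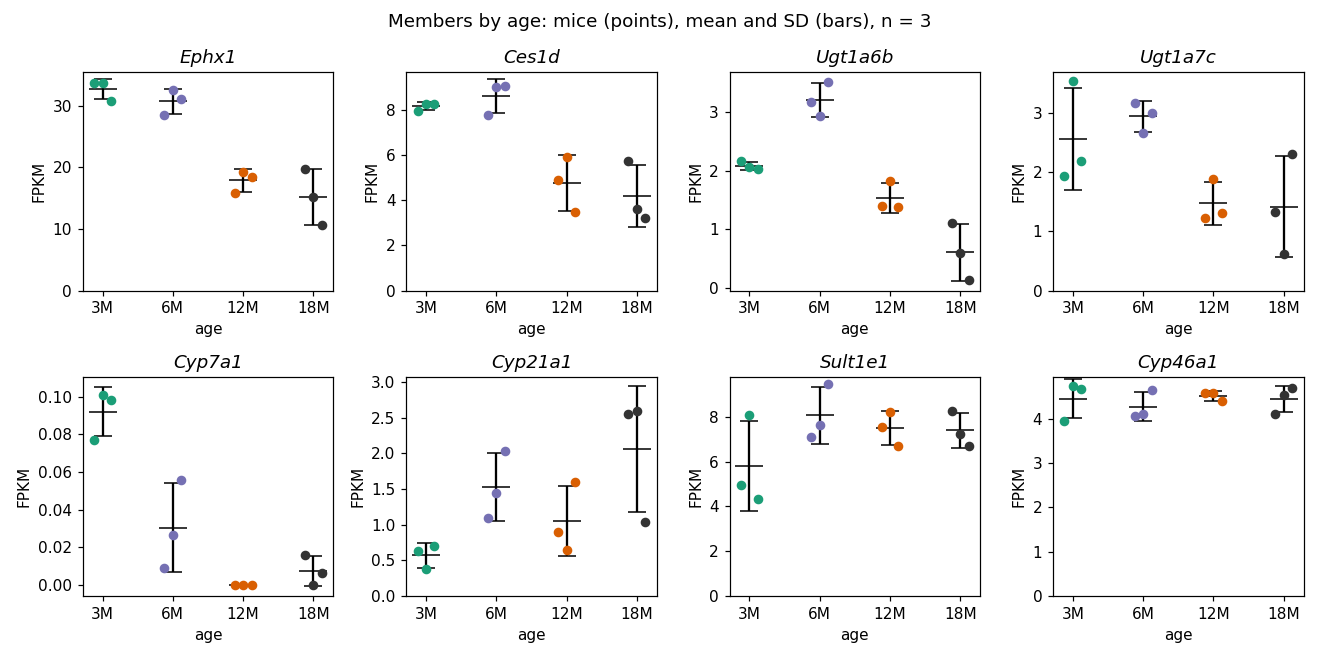
FPKM of 8 members by age on linear axes, with 1 point per mouse and bars at the mean and SD of 3 mice. Ephx1 and Ces1d lie lower at 12M and 18M than at 3M and 6M in every mouse, Cyp7a1 is at 0 in the 3 mice of 12M, and Cyp46a1 stays between 3.94 and 4.73 FPKM in all 12 mice.

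The largest step between neighbouring ages in both genes was from 6M to 12M. From 6M to 12M the log2 change of Ephx1 was -0.75 (SE 0.093, edgeR adjusted p = 0.077) and that of Ces1d was -0.83 (SE 0.18, adjusted p = 0.48). From 3M to 6M they were -0.09 and 0.07, both with an adjusted p of 0.99. Between the extremes, 18M against 3M, Ephx1 was 2.13-fold lower (log2 -1.09, SE 0.2, adjusted p = 0.22) and Ces1d 1.93-fold lower (log2 -0.95, SE 0.2, adjusted p = 0.26). None of these edgeR values passed the threshold in the fits of 6 libraries. DESeq2, on the same libraries, called both genes lower for 12M against 6M and for 18M against 3M.

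Levels of Leydig cell markers moved in the same direction as these genes. Of the 8 markers, 7 had a slope below 0, and Cyp11a1, Cyp17a1 and Lhcgr were called lower with age. Slopes below 0 were also common in other lists: 7 of 8 macrophage, 5 of 5 peritubular myoid and 4 of 5 endothelial markers. They were fewer among Sertoli (6 of 10), spermatogonial (4 of 6), spermatocyte (2 of 6) and spermatid (0 of 7) markers. In the slope test edgeR called no marker outside the Leydig list. DESeq2 called 6 Leydig markers, and of the other lists Pecam1 (endothelium), Acrv1 and Spaca1 (spermatids). At an unadjusted p of 0.05 or less, 7 of 8 Leydig, 3 of 7 spermatid, 2 of 6 spermatocyte and 2 of 5 endothelial markers passed, and 1 or 0 in each other list. Of all genes tested, 17.5% passed. Insl3, a hormone of Leydig cells, made up 80.5% to 89.0% of the Leydig sum in every library, so the sum mostly shows this 1 gene. Without Insl3 the other Leydig markers summed to 178, 229 and 164 FPKM at 3M, 162, 182 and 202 at 6M, 118, 125 and 112 at 12M, and 116, 88.9 and 77.4 at 18M. Without Insl3 the 2 younger ages lay above the 2 older ages in every mouse. In the full sum they overlapped, with 975 in 18M-1 against 940 in 6M-1. Within an age, the order of mice in the sum without Insl3 was that of both Ephx1 and Ces1d at 18M. At 3M it differed from that of Ces1d, and at 6M and 12M from that of Ephx1. With 3 mice per age, such orders cannot decide whether these levels move together. The part of Leydig cell number or activity in the fall of Ephx1 and Ces1d was not tested.

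**Figure D3:**
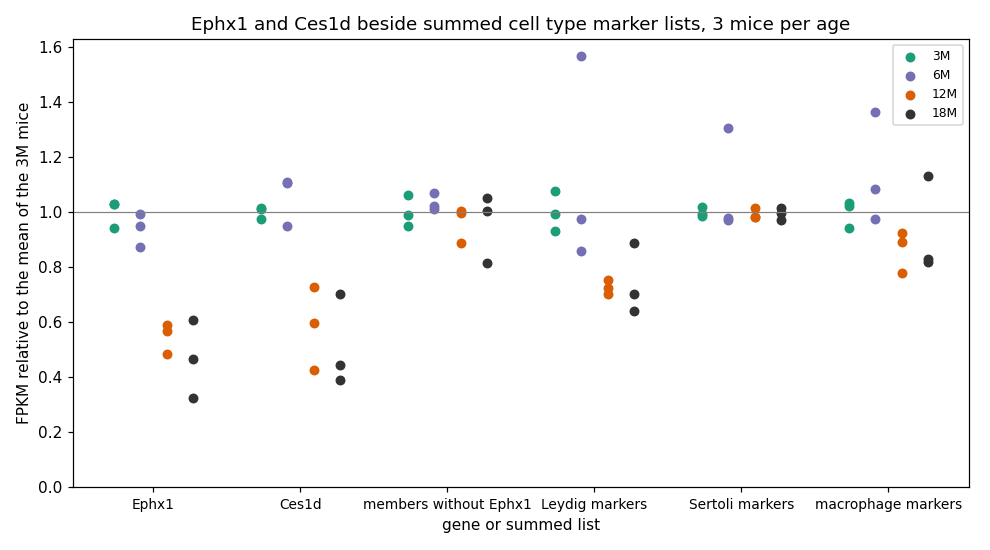
FPKM relative to the mean of the 3M mice for Ephx1, Ces1d, the summed members without Ephx1 and 3 summed marker lists (the Leydig sum is mostly Insl3), with 1 point per mouse and a grey line at 1. Ephx1, Ces1d and the Leydig sum lie below the line in all mice of 12M and 18M, while the Sertoli sum stays near it except in the mouse 6M-3.

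In the 4 pairwise tests between ages no member was called by edgeR. For 18M against 3M, 12 of 18130 genes were called (0.0662%) and none of the 80 members tested, and 10 members had an unadjusted p of 0.05 or less beside 13.5% of all genes. For 6M against 3M, 9 of 18122 genes were called (0.0497%), none of 79 members, with 9 members at that unadjusted p beside 3.96% of genes. For 12M against 6M, 11 of 18141 were called (0.0606%), none of 81 members, with 10 beside 8.72%. For 18M against 12M, 5 of 18168 were called (0.0275%), none of 82 members, with 2 beside 3.52%. In all these counts the Ugt1a genes, which share reads, are taken singly. From 3M to 6M their median log2 change was 0.599, with 1 of 8 below 0. DESeq2 called more: 4 members for 18M against 3M (Ephx1, Ces1d and Cyp7a1 lower, Cyp21a1 higher), 2 for 6M against 3M (Cyp21a1 and Ugt1a6b higher), 4 for 12M against 6M (Ephx1, Ces1d, Ugt1a6b and Ugt1a7c lower) and 1 for 18M against 12M (Ugt1a2 lower). The share of all genes that DESeq2 called in these pairwise tests is not given here. These counts are therefore not read as a trait of the members.

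Members whose 18M and 3M mice did not overlap at all were counted next. In 10 of 80 members (12.5%) every 18M mouse was below every 3M mouse in CPM (reads scaled to library size with TMM scaling), beside 10.8% of all genes. They were Aox1, Ces1d, Cyp2u1, Cyp4v3, Cyp7a1, Ephx1, Ugt1a2, Ugt1a5, Ugt1a6b and Ugt3a2. In 4 members (5.0%), Aox3, Ces3a, Cyp21a1 and Cyp4f40, every 18M mouse was above, beside 9.67% of all genes. Of the 80 members, 50 had a fitted change below 0 (62.5%), against 50.4% of all genes, and the median log2 change was -0.12, against -0.0019 over all genes. These counts hold 8 Ugt1a genes, all below 0, which share reads and are not separate measurements. Ugt1a2, Ugt1a5 and Ugt1a6b among the members without overlap are thus 1 locus.

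The tested glucuronosyltransferases had slopes of 1 sign. All 12 lay below 0, beside 51.3% of all genes, and none was called alone by edgeR. An unadjusted edgeR p of 0.05 was passed by 7, beside 17.5% of all genes, and 6 of these 7 were Ugt1a genes. DESeq2 called Ugt1a6b. Of the 12, 8 belong to the Ugt1a locus on chromosome 1, whose genes have first exons of their own and share their 3′ exons. Between 50.4% and 70.8% of the 101-base windows of each Ugt1a gene were shared with other genes, so their separate values depend on how the assembly divided the reads. Ugt1a6b, one of the phenol-conjugating forms, had 2.16, 2.07 and 2.03 FPKM at 3M, 3.18, 2.93 and 3.52 at 6M, 1.40, 1.83 and 1.38 at 12M, and 1.10, 0.588 and 0.13 at 18M. The 4 ages did not overlap with each other. Its slope was -0.14 log2 units per month (SE 0.036, edgeR adjusted p = 0.11), and from 6M to 12M it was -1.03 (SE 0.14, adjusted p = 0.13).

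Ugt1a7c, its neighbour, had 1.94, 3.54 and 2.18 FPKM at 3M, 3.17, 2.65 and 2.99 at 6M, 1.22, 1.88 and 1.31 at 12M, and 1.32, 0.614 and 2.31 at 18M. The 12M mice were all below the 3M and 6M mice, and the 18M mice overlapped with those of 3M. Its slope was -0.07 (SE 0.024, edgeR adjusted p = 0.17) and its change from 6M to 12M was -0.97 (SE 0.17, adjusted p = 0.26). Ugt1a6a, the highest of the locus, had a slope of -0.03 (SE 0.013, edgeR adjusted p = 0.25), and one of its assembled transcripts varied from 0 in every 6M mouse to 7.61 ± 6.65 FPKM at 18M (SD, n = 3). That transcript held 26.7% of the reads of the gene and starts at base 88205510 of chromosome 1. Another, with 10.2% of the reads, starts at base 88205795. The RefSeq transcript of Ugt1a6a starts upstream of both, at base 88134809. A further limit of Ugt1a6a is an overlap of 100 bases with Dnajb3 on the opposite strand, a gene with 451518 reads.

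Counting the locus as 1 gene avoids dividing shared reads, and this alternative was chosen after the data were seen. In CPM, here reads scaled to the gene reads of a library, the Ugt1a sum was 49.4, 52.7 and 43.7 in the 3M mice, 45.7, 54.9 and 52.2 in the 6M mice, 31.8, 40.2 and 32.5 in the 12M mice and 37.5, 28.9 and 24.6 in the 18M mice. In this measure every 12M and 18M mouse was below every 3M and 6M mouse, and the mouse 18M-3 had the lowest value. In summed FPKM, which depends on how reads were divided among transcripts of unequal length, the ages overlapped: 18M-1 was at 17.7 and 12M-2 at 15.9, against 14.7 in 3M-3 and 13.6 in 6M-1. The slope of the summed counts was -0.052 log2 units per month (SE 0.009, edgeR adjusted p = 0.032). With 1 library left out its adjusted p lay between 0.0065 and 0.13 and the call was lost in 7 of 12 fits (without 3M-1, 3M-2, any one of the 6M libraries, 18M-2 or 18M-3), and with age as a factor it was 0.16. In the pairwise tests the change from 3M to 18M was -0.67 (SE 0.15, adjusted p = 0.27).

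**Figure D4:**
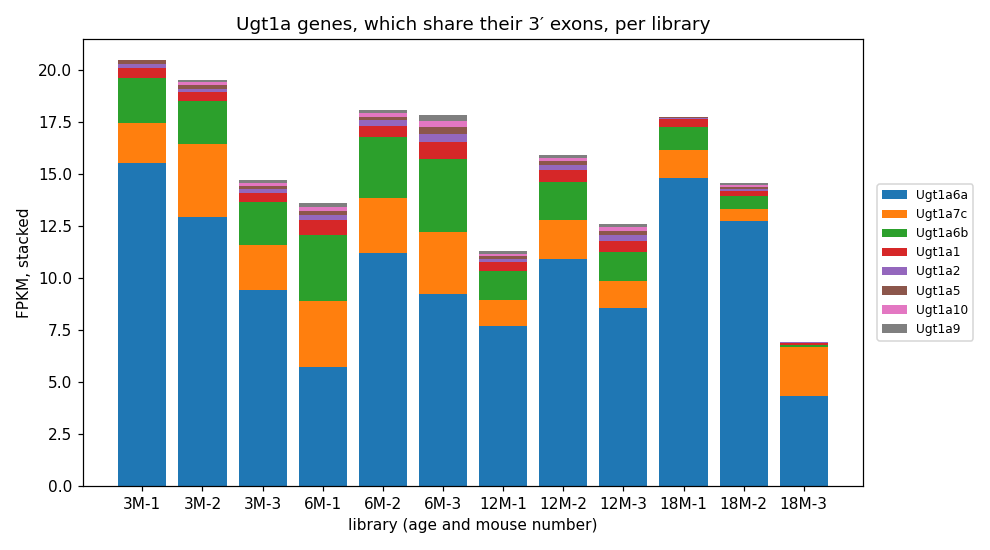
FPKM of the 8 Ugt1a genes stacked per library, 3 mice per age. The stack ranges from 6.91 FPKM in the mouse 18M-3 to 20.4 in the mouse 3M-1, and Ugt1a6a makes up the largest piece in each library.

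Cyp7a1, the rate-limiting enzyme of bile acid synthesis in liver, was a trace transcript in testis, with its highest values at 3M. Its reads were 18, 26 and 26 in the 3M mice, 2, 6 and 14 at 6M, 0, 0 and 0 at 12M, and 4, 0 and 2 at 18M. All 3M mice were above all older mice. Against a floor of 3 counts over the 12M group, the 3M level was at least 24.5-fold higher, with counting error only in that bound. The slope was -0.33 log2 units per month (SE 0.069, edgeR adjusted p = 0.065), and it was not called. It could be tested in 8 fits that left out 1 library, where the adjusted p ranged from 0.013 to 0.18 and the call was made in 1, without the library 18M-1. Over the bile acid and oxysterol list (Cyp7a1, Cyp7b1, Cyp8b1, Cyp27a1, Cyp39a1 and Cyp46a1), 0 of 5 tested members were called in the slope test by edgeR or DESeq2, 1 passed an unadjusted p of 0.05 (Cyp7a1), and 3 of the 5 had a slope below 0.

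Cyp21a1, the steroid 21-hydroxylase known from the adrenal cortex, was higher than at 3M in most older mice. It had 0.626, 0.374 and 0.702 FPKM at 3M, 1.10, 1.45 and 2.04 at 6M, 0.899, 0.65 and 1.60 at 12M, and 2.55, 2.59 and 1.04 at 18M. All 6M and 18M mice were above all 3M mice, and the 12M mice overlapped with 3M. The log2 change was 1.42 (SE 0.3, edgeR adjusted p = 0.71) from 3M to 6M and 1.85 (SE 0.39, adjusted p = 0.27) from 3M to 18M, and the slope was 0.082 (SE 0.031, adjusted p = 0.21). Of its windows, 4.86% are shared with the pseudogene Cyp21a2-ps. The other adrenal hydroxylases, Cyp11b1 (0.364 FPKM) and Cyp11b2 (0.262 FPKM), had slopes below 0 and were not called.

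**Figure D5:**
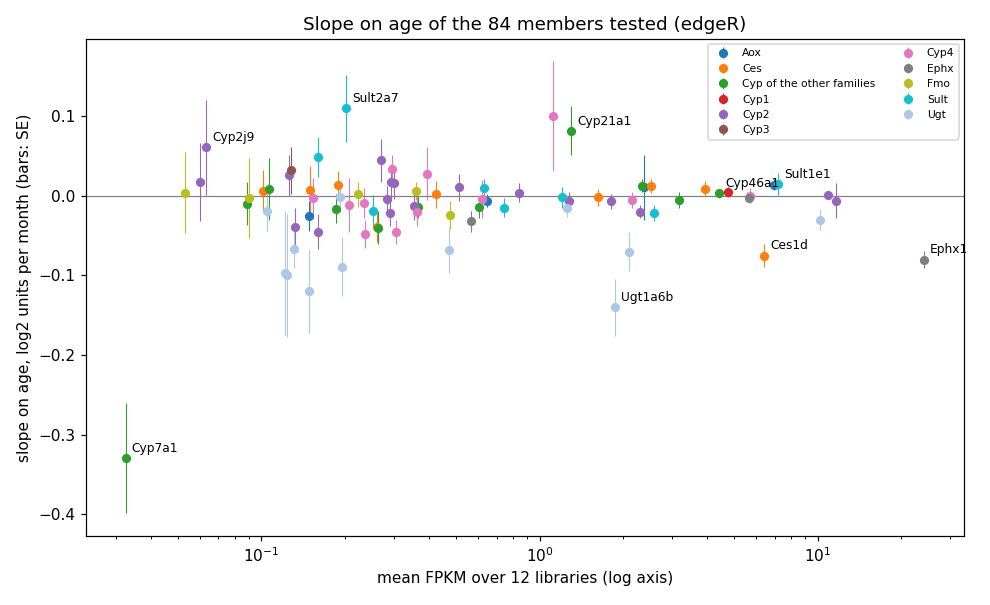
Slope on age in log2 units per month (vertical axis, bars show the SE) against mean FPKM over 12 libraries (log axis) for the 84 members tested, coloured by family. Ephx1 and Ces1d, the 2 called members, lie below 0 at the right, Cyp7a1 lies lowest at the left with -0.33, and the Ugt points all lie below 0.

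Among the xenobiotic P450 families Cyp1, Cyp2 and Cyp3, 17 of 63 members had no read, 20 were tested and 0 were called in the slope test by edgeR or DESeq2, with 1 at an unadjusted p of 0.05 or less and 9 slopes below 0. Cyp2d26 was level, at 11.3 ± 0.753 FPKM at 3M and 10.8 ± 0.115 at 18M (SD, n = 3). Cyp1b1 was 4.89 ± 0.691 at 3M and 5.06 ± 0.529 at 18M. Cyp1a1 and Cyp1a2, which are induced by aromatic pollutants in liver, had means of 0.0157 and 0.0669 FPKM and were too low to test. Cyp2e1, which oxidises ethanol, had 0.132 FPKM with a slope of -0.039 (adjusted p = 0.41).

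Members that act on vitamin D, fatty acids and cholesterol were called in 1 case. In the vitamin D list (Cyp2r1, Cyp27a1, Cyp27b1 and Cyp24a1) all 4 members were tested in the slope test and 0 were called by edgeR or DESeq2 or passed an unadjusted p of 0.05, with summed levels of 4.45 to 6.75 FPKM per library. In the fatty acid and eicosanoid list, 10 of 44 members had no read, 19 were tested, 13 slopes were below 0 and Ephx1 alone was called. Soluble epoxide hydrolase Ephx2, which opens epoxides of fatty acids, had 0.566 FPKM and a slope of -0.032 (SE 0.013, edgeR adjusted p = 0.24). Cyp46a1 was 4.45 ± 0.441 FPKM at 3M and 4.44 ± 0.301 at 18M, with a slope of 0.003 (SE 0.0054, adjusted p = 0.8).

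Among the sulfotransferases, 8 of 21 members were tested and 0 were called by edgeR or DESeq2 in the slope test, with 1 at an unadjusted p of 0.05 or less. Sult1e1, the estrogen sulfotransferase, was 4.97, 8.09 and 4.32 FPKM at 3M, 7.09, 7.63 and 9.50 at 6M, 7.55, 8.22 and 6.70 at 12M, and 8.27, 7.22 and 6.71 at 18M. One 3M mouse lay among the older mice, and the slope was 0.015 (SE 0.014, edgeR adjusted p = 0.6). Sult2a7 had the largest slope of the sulfotransferases, 0.11 (SE 0.042, adjusted p = 0.22), on 137 reads in all. Ces3a was 3.38 ± 0.661 FPKM at 3M and 4.16 ± 0.708 at 18M, and Ces1a was 2.44 ± 0.33 and 2.67 ± 0.309 (SD, n = 3). Of the 9 carboxylesterases tested, Ces1d alone was called.

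Aldehyde oxidases and the other named genes were not called. Aox3 was 6.35 ± 1.25 FPKM at 3M and 6.79 ± 0.774 at 18M, and its RefSeq transcript alone varied from 0.308 to 5.67 FPKM among libraries. Aox2 had a slope of -0.025 (SE 0.019, edgeR adjusted p = 0.53) and Fmo1 of -0.024 (SE 0.018, adjusted p = 0.52). Cyp2j9 had a slope of 0.061 (adjusted p = 0.62), Cyp3a57 of 0.032 (adjusted p = 0.59) and Cyp4f37 of 0.1 (adjusted p = 0.46). Cyp4f37 rested on 1 assembled transcript that was at 3.05 FPKM in the mouse 18M-1 and at 0 in the other 18M mice. Aox1, whose exons overlap Sgol2a over 44.9% of their bases, was 5.30 FPKM in the mouse 12M-2 and 1.84 and 1.85 in the other 12M mice.

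The summed level of the 174 members was, from the youngest to the oldest age, 159 ± 8.51, 161 ± 5.84, 140 ± 9.94 and 136 ± 20.1 FPKM (SD, n = 3). Ephx1 made up between 20.0% and 21.2% of it at 3M and between 9.26% and 13.0% at 18M. Without Ephx1 the sums were 126 ± 7.23, 131 ± 3.94, 122 ± 8.13 and 121 ± 15.7 FPKM, and all 4 ages lay within the SD of 18M. By family, the epoxide hydrolases summed to 39.1 ± 1.58 FPKM at 3M and 21.2 ± 4.88 at 18M, the Ugt genes to 20.2 ± 3.17 and 14.7 ± 5.3, and the carboxylesterases to 16.9 ± 0.599 and 13.8 ± 0.93. These falls lay mainly in 1 gene or locus each. The main Ephx1 transcript was at 32.4 ± 1.45 and 14.7 ± 4.26 FPKM, the Ugt1a sum at 18.2 ± 3.09 and 13.0 ± 5.53, and Ces1d at 8.16 ± 0.177 and 4.18 ± 1.36. The Cyp2 family was 30.7 ± 4.22 and 32.2 ± 5.85 FPKM, and the sulfotransferases 11.8 ± 2.21 and 13.3 ± 1.17.

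Genes that work with these families were measured beside them. The electron donors of P450 enzymes (Por, Cyb5a, Cyb5b, Cyb5r1, Cyb5r3, Fdx1 and Fdxr) were all above 1 FPKM, and 0 of 7 were called by edgeR in the slope test. An unadjusted p of 0.05 or less was found for 4, beside 17.5% of all genes tested. A slope below 0 was found for 6, beside 51.3% of all genes. DESeq2 called Cyb5r3, a cytochrome b5 reductase, which was 19.8 ± 0.694 FPKM at 3M and 17.2 ± 0.486 at 18M (SD, n = 3). P450 reductase Por, which hands electrons to the microsomal enzymes, was 6.77 ± 0.0943 FPKM at 3M and 6.0 ± 0.187 at 18M, with a slope of -0.013 (SE 0.004, adjusted p = 0.15). Among the sensing receptors and partners, such as the aryl hydrocarbon receptor Ahr (0.174 FPKM) and Nr1i2 (0.199), 0 of 12 tested were called. For cofactor supply and other conjugation 0 of 11, and for drug efflux pumps 0 of 8, were called. In each of these 3 lists DESeq2 also called 0, and 1 gene had an unadjusted p of 0.05 or less.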

How the data were processed

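Testis RNA of 12 mice was measured, and libraries were grouped by the age in their labels and are named by age and mouse number (3M-1 to 18M-3). Ribosomal RNA was removed, and the library kit keeps no strand. The authors aligned reads with HISAT2 to mm10 and assembled and quantified transcripts with StringTie 1.3.3b. The deposited estimated counts are coverage times length over the read length of 101 bases, rounded up by the authors: of 71967 transcripts checked in 1 library, 103 differed from this rule and 0 by more than 1. The deposited FPKM values are scaled to the depth of each library, and the authors did not normalize them further between libraries. FPKM and counts were summed per gene over transcripts with class codes =, c, j and o (241 member transcripts, 209 of them =). Since assembly can move reads between genes that overlap or share sequence, windows of 101 bases shared between GENCODE vM21 transcripts and exon overlaps were counted.

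The quasi-likelihood F-test of edgeR 4.0.16 was run on the counts in R 4.3.3, with TMM scaling, filterByExpr and Benjamini-Hochberg adjustment over the genes tested, and genes were called at an adjusted p of 0.05 or less. Pairwise fits held the 6 libraries of both ages, and the slope on age in months held all 12. Alternatives were DESeq2 1.42.0, other scalings, filters and class codes, age as a factor, a replicate block and leaving out each library. The script was tested on simulated counts. Named genes are the members called in any test, the 15 highest by mean FPKM, and in each family the highest and the one with the largest slope; Cyp21a1, Ugt1a7c, Ephx2, Aox1, Cyp2e1 and others outside this rule were named after their values were seen. Members and lists were chosen with earlier results of these data known. Each library is 1 mouse. Mouse numbers are not stated to pair animals across ages: in 18 pairs of same-numbered libraries, deviations from the age means over 18133 genes correlated between -0.054 and 0.15, with 1 pair over 0.1. Libraries of an age correlated at 0.994 to 0.996 over genes. Depth limits the precision of low genes, and the floor for a count of 0 is 3 counts.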

Additional observations from a re-analysis of the deposited data

Results flagged for a closer look

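Reads of some members lay in assembled transcripts that were left out because of their class code, and these are listed as signal outside the main measurement. Over the 12 libraries, Cyp4f39 had 21146 reads in 1 transcript of class e (a single exon reaching into an intron), at a mean of 6.92 FPKM against 0.392 in its kept transcripts. Ephx4 had 10586 reads in 13 transcripts of class x (exonic overlap on the opposite strand), at 12.2 FPKM against 5.68. Cyp4f37 had 5489 reads in 1 transcript of class e, at 1.39 FPKM against 1.12. Sult6b1 had 1739 reads and Ces1a 1519 reads in 1 transcript of class x each, at 1.54 FPKM against 0.632 and at 1.99 FPKM against 2.51. Aox1 had 928 reads and Cyp2b13 58 reads in 1 transcript of class i each (within an intron), and Cyp2b13 had only 3 reads in its kept transcripts. The libraries carry no strand, so class x transcripts cannot be told from the sense strand by the reads themselves except at splice sites. Outlying mice within an age were not tested for, since each age holds 3.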

How the results depend on the processing

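The number of members called depended on the test and the fit. DESeq2 gave 4 members for 18M against 3M, 2 for 6M against 3M, 4 for 12M against 6M, 1 for 18M against 12M and 3 in the slope test (Ephx1, Ces1d and Ugt1a6b), with 577 genes called in the slope test against 76 by edgeR. For the pairwise tests the number of all genes called by DESeq2 is not given here, so those member counts have no share beside them. The fit of all 12 libraries called 1 member for 18M against 3M (Ephx1, adjusted p = 0.04). The slope test gave 1 member (Ephx1) with no filter on low counts, 1 with class code = only and 0 with age as a factor (Ephx1 at an adjusted p of 0.053). With 1 library left out, 0 to 1 members were called for 18M against 3M, where the 1 was Ces1d without library 18M-1, 0 to 0 in each other pairwise test, and 1 to 3 in the slope test. The Ugt1a sum, added after the data were seen, raised the slope calls to 3, and the sum itself was called with the replicate block (adjusted p = 0.044) and in DESeq2, not with age as a factor (0.16), and in 5 of 12 fits without 1 library. Genes of all kinds called in the slope test were 45 with no filter, 15 with class code = only, 17 with age as a factor, 31 with a log2 change of 1 or more, and 18 to 197 with 1 library left out. The mouse numbers share only a number and the block was given as an alternative: with the replicate block 1 member was called in the slope test (Ephx1, adjusted p = 0.014), 42 genes in all, and 0 members in each pairwise test. The cause of these differences was not tested.

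Slopes of genes that were not called turned sign as follows, in log2 units per month. With class code = only, Cyp2d26 was -0.0088, Aox3 -0.012, Cyp1b1 -0.0049, Sult1a1 0.0056, Ces3a -0.013, Cyp4f41-ps 0.0018, Cyp4f37 -0.019 and Aox1 -0.07. With age as a factor, Cyp2d26 was -0.0016, Cyp27a1 0.0011 and Aox1 -0.017, and with library size only Cyp2d26 was -5.7e-05. With all class codes Ephx4 was 0.0023, and Cyp4f41-ps was 3.5e-05 in DESeq2 and 0.00037 with the replicate block. Without library 18M-2 Ephx4 was 0.0026, Cyp2a12 0.0018, Cyp1b1 -0.0013, Cyp27a1 0.0021 and Cyp4f41-ps 0.00082. Without other single libraries Cyp2a12 was 0.012 (3M-1) and 0.0027 (3M-3), Cyp27a1 0.0002 (6M-3), Cyp4f37 -0.051 (18M-1), Aox1 -0.018 (12M-2) and Cyp4f41-ps 0.0063 (3M-1), 0.0036 (3M-2), 0.0004 (6M-1), 0.00057 (12M-2) and 0.0028 (18M-1). Over all fits without 1 library, the slopes of these genes ranged from -0.0048 to 0.0026 for Ephx4, -0.031 to 0.012 for Cyp2a12, -0.0013 to 0.01 for Cyp1b1, -0.0089 to 0.0021 for Cyp27a1, -0.0078 to 0.0063 for Cyp4f41-ps, -0.051 to 0.141 for Cyp4f37 and -0.018 to 0.03 for Aox1.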
